A study of Mus musculus with 24 samples.

Results

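The question here was whether the same tumour changed F4/80hi MHCIIlow and F4/80hi MHCIIhi macrophages of the mouse colon by the same amount. For each gene the tumour effect is tumour minus lamina propria (LP), taken separately in each subset on the log2 RPKM scale (read counts per gene length and sequencing depth, as deposited), and the quantity described is the tumour effect in MHCIIlow minus the tumour effect in MHCIIhi, called the interaction below. It rests on 12 of the 24 libraries of the series, 3 in each of 4 groups, and was tested in 12878 of the 17301 deposited genes, those with a group mean of at least 1 RPKM in at least 1 of the 8 groups. The spread used in the test was estimated over all 24 libraries. A positive interaction means that the tumour raised the gene more, or lowered it less, in MHCIIlow than in MHCIIhi cells. The same number is the subset difference (MHCIIlow minus MHCIIhi) in tumours minus the subset difference in LP, so it shows which genes diverged or converged between the subsets.

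The LP groups, LP_Ma.Hi and LP_Ma.Lo, came from the colon of C57BL/6J mice. The tumour groups, Tu_Ma.Hi and Tu_Ma.Lo, came from colon adenomas of Apc Min/+ animals, which the study's methods list on the same C57BL/6J background. Every cell of the Apc Min/+ animals has 1 truncated copy of the tumour suppressor Apc. Mice were young adults of both sexes a few months old. Adenomas were brought on with dextran sodium sulphate (DSS) in the drinking water. The study's methods give DSS to the C57BL/6J controls too, whereas the labels call their tissue healthy, so that the DSS history of the LP donors is not settled here. Each donor number stands for a pool of animals. Both subsets were sorted as F4/80hi CD11b+ cells and parted by surface MHCII, after CD11c hi MHCII hi dendritic cells had been gated out. Apc genotype, tumour, tissue digestion (EDTA and then a longer collagenase step for LP, collagenase with DNase and no EDTA for tumours) and the Percoll gradient that enriched leukocytes changed together. So did the DSS dose in the study's methods, which is higher for Apc Min/+ animals than for controls. These factors cannot be told apart, but each of them was shared by both subsets of a tissue.

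Resident macrophages of the gut wall are long-lived phagocytes that clear dying cells and bacteria without strong inflammation. Those with much MHCII present antigen to CD4+ T cells, while those with little are enriched for scavenger receptors in many organs. Macrophages of tumours commonly burn glucose to lactate, take up or make arginine, and release proteases that cut the extracellular matrix.

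Before the results, some facts on the libraries bear on all of them. The 12 libraries held 12.8 to 41.7 M reads on genes. Adgre1, which encodes F4/80, lay between 7.95 and 8.88 log2 RPKM in all of them, and its interaction was 0.22 ± 0.27 (SE, adjusted p = 0.867). The 13 macrophage identity genes summed to between 13590 and 25198 RPKM, and limma called none of the 13 in the interaction (1 at an unadjusted p under 0.05). Mitochondrial transcripts took 2.25 to 4.82% of the reads in LP_Ma.Lo against 1.03 to 1.27% in LP_Ma.Hi, 1.37 to 1.49% in Tu_Ma.Hi and 1.84 to 2.29% in Tu_Ma.Lo. The summed level of 15 fibroblast and endothelial markers was 29.3 to 96.5 RPKM in LP_Ma.Lo and at most 47.9 in the other groups, and that of 12 B and plasma cell markers was 328 to 1979 RPKM in LP_Ma.Lo and at most 493 elsewhere. The epithelial markers summed to at most 87.2 RPKM in 11 libraries and to 303 RPKM in 1 library of Tu_Ma.Lo. Their part in the results was not tested. The library LP_Ma.Lo II stood apart from LP_Ma.Lo III and IV in many of the genes below, and Tu_Ma.Hi VII had the fewest genes with more than 3 reads (13541).

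The interaction passed the threshold (limma, Benjamini-Hochberg adjusted p under 0.05) in 188 genes, 1.46% of those tested. It was called higher in 146 genes (1.13%) and lower in 42 (0.326%). The interaction lay between 0.70 and 8.94 log2 units among the genes called higher and between -8.57 and -0.75 among those called lower, while the median over all genes tested was 0.06. Of the 188, 136 reached a group mean of 10 RPKM in at least 1 macrophage group. The split of 77.7% higher depended on the scaling. It was 62.4% after quantile normalization (217 higher, 131 lower) and 48% when the recovered reads were scaled by their sum (269 higher, 292 lower), a scaling that moved the median of all genes from 0.06 to -0.07. The number of calls was also sensitive to single libraries. It fell from 188 to 80 without Tu_Ma.Lo V, to 83 without LP_Ma.Hi IV, to 91 without LP_Ma.Hi V or Tu_Ma.Hi VII and to 98 without LP_Ma.Hi III, rose to 311 without LP_Ma.Lo III, and was 141 without LP_Ma.Lo II. All 188 kept their sign in each of the 27 alternatives that tested them, but only 16 passed the threshold in every one. A fit on the 12 macrophage libraries alone estimates the spread from fewer samples, without the monocyte and neutrophil libraries. Genes at an unadjusted p under 0.05 numbered 2034 in that fit and 1642 in the main fit (both limma). It called 87 genes, 52 higher and 35 lower, and kept 39 of the 188. Of the 50 called genes named below it kept 14, namely Dcstamp, Emb, Lmnb1, Cyp4f18, Havcr2, Slc16a3, Acot7, Tes, Acod1, Mmp13, Jmjd1c, Tns1, Runx1 and Nhlrc3, and the other 36 had adjusted p between 0.0582 and 0.173 there.

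**Figure D1:**
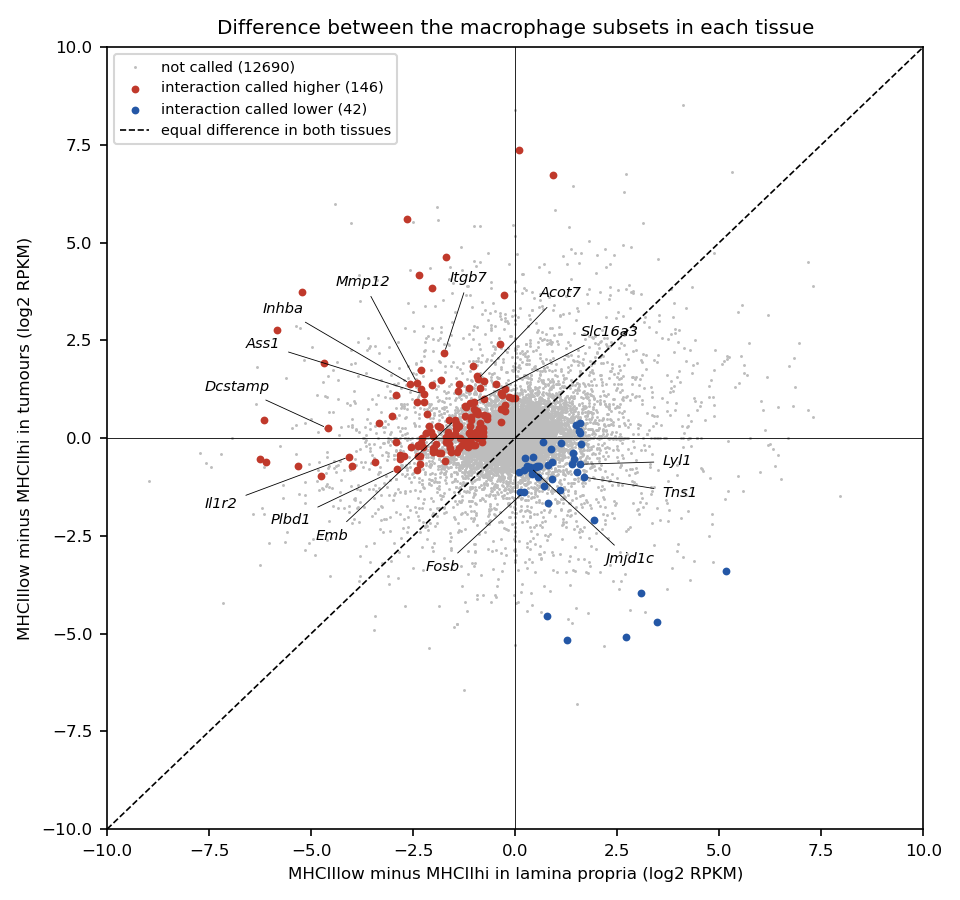
Each point is 1 of the 12878 genes tested, with the mean difference MHCIIlow minus MHCIIhi in LP on the x axis and in tumours on the y axis (log2 RPKM, 3 libraries a group). The 146 genes called higher (red) lie above the dashed line of equal differences and mostly left of 0, and the 42 called lower (blue) lie below it and mostly right of 0.

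The direction of the change can be read from the simple contrasts, which use the same libraries as the interaction and are given as a description. Among all genes tested, MHCIIlow and MHCIIhi cells differed in 991 genes (7.7%) in LP and in 146 (1.13%) in tumours, and the median absolute difference was 0.44 log2 units in LP and 0.32 in tumours. Of the 146 genes with a higher interaction, 120 were called lower in MHCIIlow than in MHCIIhi cells of LP (5.57% of all genes were), and in tumours 1 of the 146 was called lower and 24 higher (0.567% of all genes in each direction). The tumour effect was called up in MHCIIlow cells in 96 of the 146, with 11.5% of all genes called up there, and down in MHCIIhi cells in 68, with 11.5% of all genes called down there. Of the 42 genes with a lower interaction, 17 were called higher in MHCIIlow cells of LP and 13 lower in MHCIIlow cells of tumours, beside 2.13% and 0.567% of all genes. The tumour effect of these 42 was called down in MHCIIlow cells in 31 and up in MHCIIhi cells in 14, beside 11.8% and 8.01% of all genes. Most called genes thus differed between the subsets in LP and not by the test in tumours, and are called converging below. Those that were higher in MHCIIlow cells of tumours are called diverging. Both words follow the calls and not the size of the difference. By group means the subset difference changed sign in 96 of the 146 genes called higher (65.8%). It narrowed in 47 (32.2%) and widened in 3 (2.05%). Over all genes tested these shares were 42.4, 35.5 and 22%. Of the 42 called lower, 38 changed sign (90.5%) and 4 narrowed (9.52%).

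Dcstamp, a membrane protein needed for the fusion of osteoclasts and giant cells, had the largest interaction of the converging genes named here. Its log2 RPKM was 5.33, 4.87 and 4.93 in LP_Ma.Hi (III, IV, V) and -0.38, 0.71 and 1.01 in LP_Ma.Lo (II, III, IV). In tumours (I, V, VII) it was 6.35, 7.05 and 6.34 in MHCIIhi and 6.61, 7.09 and 6.79 in MHCIIlow cells. The subsets did not overlap in LP and overlapped in tumours. The tumour effect was 6.38 in MHCIIlow cells (83.4-fold, adjusted p = 1.18e-09) and 1.54 in MHCIIhi cells (2.91-fold, adjusted p = 0.00695), which gave an interaction of 4.84 ± 0.54 (SE, adjusted p = 0.00015). Within donors, MHCIIlow minus MHCIIhi was -4.62 and -3.86 in LP donors III and IV and 0.26, 0.03 and 0.45 in tumour donors I, V and VII. The gene lies on chr15:39745930-39760938 of GRCm38, plus strand. It had at least 63 reads in every library, and its interaction was 4.43 without LP_Ma.Lo II.

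Emb, or embigin, an immunoglobulin-superfamily protein that accompanies monocarboxylate transporters at the membrane, had the smallest p. Its levels were 6.88, 6.92 and 7.09 log2 RPKM in LP_Ma.Hi, 5.19, 5.76 and 5.49 in LP_Ma.Lo, 6.08, 6.28 and 6.08 in Tu_Ma.Hi, and 6.44, 6.72 and 6.65 in Tu_Ma.Lo. The order of the subsets was the reverse in tumours of that in LP, with no overlap in either tissue. The tumour lowered Emb in MHCIIhi (-0.82, adjusted p = 0.000267) and raised it in MHCIIlow cells (1.12, adjusted p = 6.17e-06), an interaction of 1.94 ± 0.20 (adjusted p = 6.41e-05). Emb lies on chr13:117208536-117274415, plus strand. Of its possible 51-base reads, 14.1% also match another gene, mostly an antisense transcript, and the counting used no strand.

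Plbd1, a phospholipase B-like protein, was lower in MHCIIlow cells of both tissues, and the gap was narrower in tumours. It was at 8.86, 8.76 and 8.81 log2 RPKM in LP_Ma.Hi, 5.01, 6.51 and 6.21 in LP_Ma.Lo, 8.18, 8.36 and 8.15 in Tu_Ma.Hi, and 7.30, 7.50 and 7.48 in Tu_Ma.Lo, with no overlap of the subsets in either tissue. The subset difference in tumours was not called (-0.80, adjusted p = 0.11). The interaction was 2.10 ± 0.33 (adjusted p = 0.00322) and passed in 26 of 27 alternatives.

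Lmnb1, which encodes lamin B1 of the nuclear lamina, and Cyp4f18, a cytochrome P450 that inactivates leukotriene B4, showed the plain form of convergence. Lmnb1 was at 5.22 ± 0.24 log2 RPKM (mean ± SD, n = 3) in LP_Ma.Hi and 3.20 ± 0.24 in LP_Ma.Lo, but at 5.01 ± 0.13 and 4.77 ± 0.13 in the tumour subsets. Only its tumour effect in MHCIIlow cells was called (1.56, adjusted p = 3.50e-07, against -0.21 with adjusted p = 0.399 in MHCIIhi), and the interaction was 1.77 ± 0.21 (adjusted p = 0.000195). Cyp4f18 was at 7.30 ± 0.06 and 4.98 ± 0.37 in LP and at 7.28 ± 0.27 and 6.83 ± 0.20 in tumours, an interaction of 1.87 ± 0.25 (adjusted p = 0.000735). The interactions of Dcstamp, Emb, Lmnb1 and Cyp4f18 passed the threshold in all 27 alternatives.

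**Figure D2:**
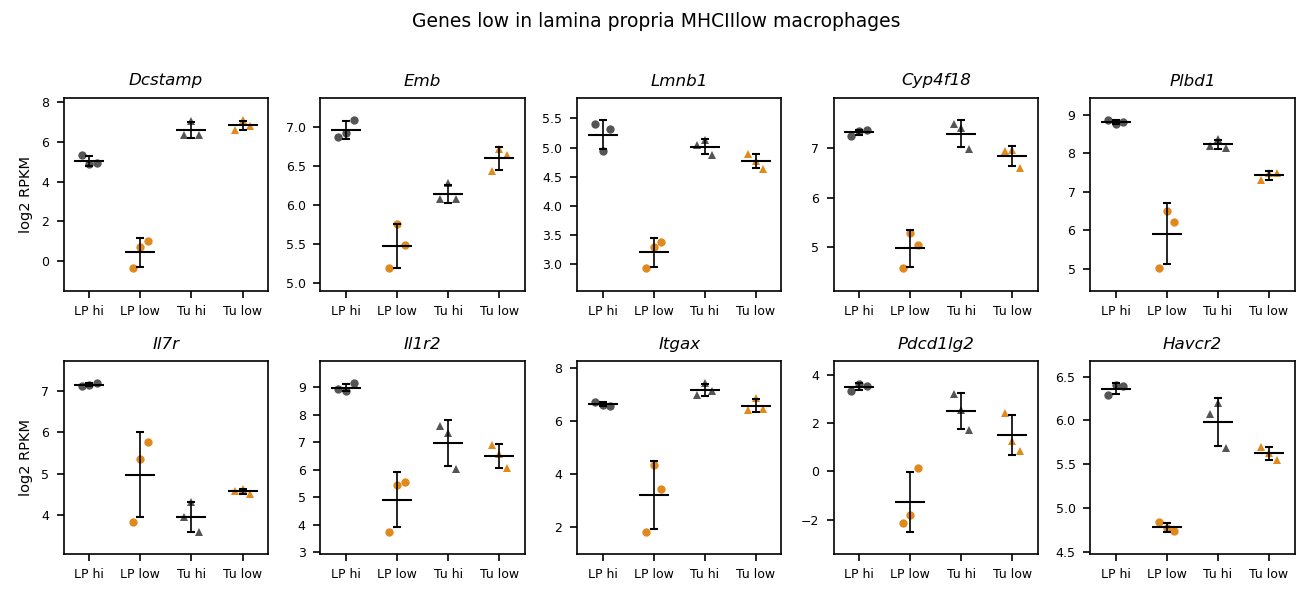
Log2 RPKM of 10 genes in the 12 libraries, with circles for LP, triangles for tumours, grey for MHCIIhi and orange for MHCIIlow. Black bars are the mean ± SD of 3 libraries. In 9 of the 10 panels the LP MHCIIlow libraries lie below all other groups, and in Il7r their mean lies above both tumour means.

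The surface receptors Itgax, Il1r2 and Il7r converged too. Itgax encodes CD11c, an integrin chain of dendritic cells and maturing gut macrophages. It was at 6.73, 6.62 and 6.58 log2 RPKM in LP_Ma.Hi and at 1.82, 4.34 and 3.45 in LP_Ma.Lo, and in tumours at 6.98, 7.42 and 7.12 in MHCIIhi and 6.41, 6.86 and 6.45 in MHCIIlow cells. The LP MHCIIlow libraries were far below the rest and spread widely, with donor II lowest. The interaction was 2.84 ± 0.53 (adjusted p = 0.0113) and 2.15 (adjusted p = 0.00212) without that library. CD11c hi MHCII hi cells had been gated out, and the summed level of 13 dendritic cell markers was 59.2 to 82 RPKM in LP_Ma.Hi, 20.9 to 27.6 in LP_Ma.Lo, 12.1 to 21 in Tu_Ma.Hi and 7.66 to 9.21 in Tu_Ma.Lo. Their part in the interaction of Itgax was not tested.

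Il1r2, the decoy receptor for interleukin-1, fell in MHCIIhi and rose in MHCIIlow cells. Its levels were 8.93, 8.87 and 9.13 log2 RPKM in LP_Ma.Hi, 3.75, 5.44 and 5.55 in LP_Ma.Lo, 7.58, 7.34 and 6.03 in Tu_Ma.Hi, and 6.91, 6.56 and 6.05 in Tu_Ma.Lo. The tumour subsets overlapped. The tumour effects were -1.99 (adjusted p = 0.0011) and 1.60 (adjusted p = 0.00521) in MHCIIhi and MHCIIlow cells, and the interaction was 3.59 ± 0.56 (adjusted p = 0.00274). Il1r2 is also a neutrophil gene. The other 13 neutrophil markers summed to 54.5 to 61.4 RPKM in LP_Ma.Hi, 31.2 to 90.6 in LP_Ma.Lo, 154 to 226 in Tu_Ma.Hi and 264 to 692 in Tu_Ma.Lo, and limma called none of the 13. Mmp9, also counted with the matrix proteases below, was the highest of the 13 in tumours, with means of 7.09 log2 RPKM in Tu_Ma.Hi and 8.63 in Tu_Ma.Lo. Csf3r came next at 5.24 and 4.53, and no other of the 13 had a tumour mean above 3.38. Camp and Stfa2l1 had at most 3 reads in each macrophage library, and so had Ly6g in LP and in Tu_Ma.Hi. Ly6g was above that in Tu_Ma.Lo, with a mean of -2.71 log2 RPKM against -6.73 in each of the other groups. Retnlg (-0.02 against -4.72), Cxcr2 (-0.90 against -4.06) and S100a8 (2.78 against 0.75) were also higher by mean in Tu_Ma.Lo than in Tu_Ma.Hi. Csf3r and Ngp (-3.11 against -2.37) were lower there. Of all 14 interactions, that of Il1r2 included, 10 were positive and 4 negative. In limma, 4 were higher and none lower at an unadjusted p under 0.05. The part of neutrophil RNA in the interaction of Il1r2 was not tested.

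Il7r, the receptor chain for interleukin-7, was also lowered by the tumour in MHCIIhi cells. It was at 7.15 ± 0.03 log2 RPKM in LP_Ma.Hi and 4.98 ± 1.02 in LP_Ma.Lo, and at 3.97 ± 0.36 and 4.58 ± 0.06 in the tumour subsets. Its tumour effect was -3.18 (adjusted p = 5.46e-07) in MHCIIhi and -0.41 (adjusted p = 0.4) in MHCIIlow cells, an interaction of 2.78 ± 0.44 (adjusted p = 0.00337). The other 11 T and NK cell markers in the table summed to 2.03 to 4.1 RPKM in LP_Ma.Hi, where Cd3e and Cd8a had at most 3 reads. The sums were 4.2 to 10.9 RPKM in LP_Ma.Lo, 1.52 to 5.18 in Tu_Ma.Hi and 6.97 to 24.9 in Tu_Ma.Lo. Of these markers 8 were tested, Il7r included, and all 8 interactions were positive (median 2.61), with only that of Il7r called. The part of T and NK cell RNA in the interaction of Il7r was not tested. Itgb7, the beta 7 integrin chain of gut-homing leukocytes, and Chst11, a chondroitin sulphotransferase, were also lowered by the tumour in MHCIIhi cells. Itgb7 was at 5.10, 5.34 and 5.05 log2 RPKM in LP_Ma.Hi and -1.82, -0.06 and 0.03 in Tu_Ma.Hi, against 2.86, 4.20 and 3.21 in LP_Ma.Lo and 2.29, 0.03 and 2.34 in Tu_Ma.Lo. Its tumour effect was -5.78 in MHCIIhi and -1.87 in MHCIIlow cells, so that the interaction of 3.91 ± 0.81 (adjusted p = 0.0182) was positive although the gene was lowered in both. With donors as a fixed replicate block its adjusted p was 0.054, and without LP_Ma.Hi IV it was 0.0523. For Chst11 the tumour effects were -3.84 and -1.22 and the interaction 2.62 ± 0.50 (adjusted p = 0.0113).

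Of the 19 tested genes for checkpoint ligands, inhibitory and Fc receptors and alternative activation, 3 were called higher and none lower, beside 1.13% and 0.326% of all genes, and 15 of the 19 interactions were positive (median 0.44). Pdcd1lg2, which encodes the PD-1 ligand PD-L2, was at 3.34, 3.60 and 3.55 log2 RPKM in LP_Ma.Hi and at -2.15, -1.80 and 0.14 in LP_Ma.Lo, as few as 10 reads. It was at 3.20, 2.54 and 1.71 in Tu_Ma.Hi and 2.43, 1.24 and 0.84 in Tu_Ma.Lo, where the subsets overlapped. The interaction was 3.79 ± 0.69 (adjusted p = 0.00931). Havcr2, which encodes the inhibitory receptor TIM-3, was at 4.84, 4.77 and 4.74 in LP_Ma.Lo and no lower than 5.55 in any other macrophage library, with an interaction of 1.22 ± 0.20 (adjusted p = 0.00355) that passed in all 27 alternatives. Pilra, an inhibitory receptor for sialylated ligands, rose in both subsets, by 2.75 in MHCIIlow and 1.15 in MHCIIhi cells (interaction 1.60 ± 0.36, adjusted p = 0.0302), but of its possible reads 20.5% match other genes. The call of Pilra was lost without any of LP_Ma.Hi III, IV or V, Tu_Ma.Hi VII, or Tu_Ma.Lo I or V (adjusted p up to 0.0893), and with the same libraries that of the G protein-coupled receptor gene Gpr171 (3.29 ± 0.76, adjusted p = 0.0359, and up to 0.0955 without a library).

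Glycolysis, which breaks glucose down to pyruvate, had the most called genes of the 19 pathway lists. Of 23 glycolysis genes tested, 7 were called higher and none lower, beside 1.13% of all genes, and 17 of the 23 interactions were positive with a median of 0.64 (all genes 0.06, 53.8% positive). The 7 were Slc16a3, Pkm, Pfkp, Pgk1, Eno1, Pgam1 and Aldoa, the last of these named after its values were seen. By the calls all but Pfkp were diverging, although in Slc16a3 the subsets changed order. Slc16a3, which encodes the lactate exporter MCT4, was at 4.23, 3.93 and 3.97 log2 RPKM in LP_Ma.Hi, 2.65, 3.39 and 3.06 in LP_Ma.Lo, 4.62, 4.72 and 4.18 in Tu_Ma.Hi, and 5.45, 5.68 and 5.12 in Tu_Ma.Lo. MHCIIlow cells were thus the lower subset in LP and the higher in tumours, with no overlap in either. Only the tumour effect in MHCIIlow cells was called (2.38, adjusted p = 2.12e-08, against 0.46 with adjusted p = 0.0833), and the interaction of 1.92 ± 0.26 (adjusted p = 0.000616) passed in all 27 alternatives.

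Eno1, or enolase, was equal in the subsets of LP and separated in tumours. It was at 5.54, 5.51 and 5.49 log2 RPKM in LP_Ma.Hi and 5.57, 5.49 and 5.48 in LP_Ma.Lo, against 5.98, 6.47 and 5.91 in Tu_Ma.Hi and 6.91, 7.42 and 7.10 in Tu_Ma.Lo. The tumour raised it by 1.63 in MHCIIlow (adjusted p = 3.79e-07) and by 0.61 in MHCIIhi cells (adjusted p = 0.0094), an interaction of 1.02 ± 0.22 (2.03-fold, adjusted p = 0.0265). Within tumour donors I, V and VII the MHCIIlow library exceeded the MHCIIhi library by 0.93, 0.95 and 1.18. Pgk1 (1.11 ± 0.24, adjusted p = 0.02), Pgam1 (1.08 ± 0.25, adjusted p = 0.0331) and Aldoa (1.19 ± 0.27, adjusted p = 0.0335) were likewise called higher in MHCIIlow than in MHCIIhi cells of tumours and not in LP. Pkm, pyruvate kinase, was at 8.83 ± 0.08 log2 RPKM in LP and 8.43 ± 0.27 in tumour MHCIIhi cells (adjusted p = 0.0836), and rose from 8.58 ± 0.06 to 9.29 ± 0.18 in MHCIIlow cells (adjusted p = 0.0024), an interaction of 1.10 ± 0.22 (adjusted p = 0.0153). Pfkp, the platelet isoform of phosphofructokinase, differed in direction, since it fell in MHCIIhi cells (-1.62, adjusted p = 9.83e-07), and the change in MHCIIlow cells was -0.36 (adjusted p = 0.139), an interaction of 1.26 ± 0.24 (adjusted p = 0.0115). By the calls it counts as converging, since its subset difference was called in LP (-0.68, adjusted p = 0.016) and not in tumours (0.57, adjusted p = 0.113). The difference changed sign, however, and was of similar size in both tissues.

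The other members of the list that the study names, Gapdh (0.80 ± 0.31, adjusted p = 0.243), Tpi1 (0.64 ± 0.27, adjusted p = 0.314) and Ldha (0.89 ± 0.27, adjusted p = 0.122), had positive interactions that did not pass, although each was called up in tumour MHCIIlow cells. Near-identical pseudogenes touch these genes, and of the possible 51-base reads 53.8% of Pgk1, 36.1% of Pgam1, 25.9% of Eno1 and 25.4% of Pkm match another annotated gene, so that their levels are uncertain. The count of 7 depended on the spread allowed and on single libraries. It was 1 when only the 12 macrophage libraries entered the fit, and 2 without Tu_Ma.Lo V, 3 without LP_Ma.Hi IV, LP_Ma.Hi V or Tu_Ma.Hi VII, and 4 without LP_Ma.Hi III. The calls of Eno1, Pgam1 and Aldoa were each lost without any of LP_Ma.Hi III, IV and V, Tu_Ma.Hi VII and Tu_Ma.Lo V and in 2 or 3 further fits without 1 library (adjusted p up to 0.0868, 0.0943 and 0.0948). That of Pgk1 was lost without LP_Ma.Hi IV or V, Tu_Ma.Hi VII or Tu_Ma.Lo V (up to 0.0722), and that of Pkm without Tu_Ma.Lo V (0.055). Tu_Ma.Hi VII was the lowest of its group in Slc16a3, Pkm, Pgk1, Eno1, Pgam1, Aldoa and Pfkp.

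**Figure D3:**
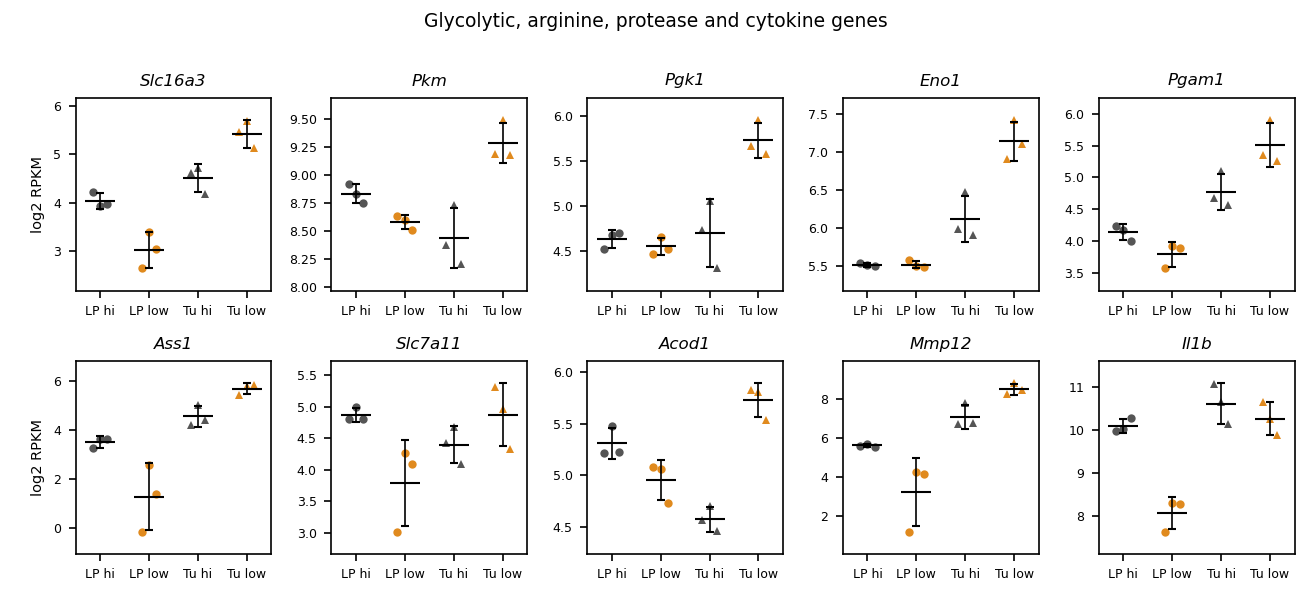
Log2 RPKM of 10 genes in the 12 libraries, drawn as circles for LP and triangles for tumours, in grey for MHCIIhi and orange for MHCIIlow, with the mean ± SD of 3 libraries in black. The tumour MHCIIlow group has the highest mean for 8 of the 10 genes, Slc7a11 and Il1b being the others.

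Short stretches before the start of these genes are shown because 5 of the 7 called glycolysis genes (71.4%) hold ACGTG, the core of the hypoxia response element, on either strand in at least 1 RefSeq window of 250 bases before a start. Of all 9067 tested genes with such a window, 25.2% do, and of all 32851 windows 16.6%. A match is a description of letters only. The windows are from RefSeq (GRCm38.p6), written 5′ to 3′ in the gene's direction with ACGTG and its reverse complement CACGT in capitals. Slc16a3 has matches that begin 14 and 27 bases before its start, Pgk1 131 and 150 bases and Pgam1 114 bases before theirs. Eno1 and Pfkp have none in these windows.
Slc16a3 (chr11:120948817-120949066, plus strand): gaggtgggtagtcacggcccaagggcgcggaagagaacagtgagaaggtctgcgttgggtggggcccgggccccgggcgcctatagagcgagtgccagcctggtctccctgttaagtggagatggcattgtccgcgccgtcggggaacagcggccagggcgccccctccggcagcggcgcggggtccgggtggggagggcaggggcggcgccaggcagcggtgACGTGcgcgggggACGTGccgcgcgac
Pgk1 (chrX:106186850-106187099, plus strand): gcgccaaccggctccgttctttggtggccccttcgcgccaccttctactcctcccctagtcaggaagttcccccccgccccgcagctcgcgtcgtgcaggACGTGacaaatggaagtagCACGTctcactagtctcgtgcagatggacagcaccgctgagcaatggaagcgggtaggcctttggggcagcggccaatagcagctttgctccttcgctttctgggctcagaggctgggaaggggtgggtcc
Pgam1 (chr19:41911621-41911870, plus strand): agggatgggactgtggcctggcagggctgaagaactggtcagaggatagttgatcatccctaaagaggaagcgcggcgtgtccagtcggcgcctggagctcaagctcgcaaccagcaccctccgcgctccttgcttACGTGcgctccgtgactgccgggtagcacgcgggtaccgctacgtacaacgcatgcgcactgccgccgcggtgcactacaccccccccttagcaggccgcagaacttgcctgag

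The list of 23 tested hypoxia targets as a whole had 1 gene called higher and none lower, beside 1.13% and 0.326% of all genes. The called gene was Ddit4, an inhibitor of the growth kinase mTORC1. The median interaction of the list was 0.14, with 14 of 23 positive. Ddit4 was at 3.08, 2.98 and 2.96 log2 RPKM in LP_Ma.Hi, 2.43, 2.41 and 2.75 in LP_Ma.Lo, 4.04, 3.67 and 2.45 in Tu_Ma.Hi, and 5.06, 4.72 and 4.51 in Tu_Ma.Lo. Its interaction of 1.86 ± 0.46 (adjusted p = 0.0453) passed in 13 of 27 alternatives, and in the replicate block fit the adjusted p was 0.0634. Of the 12 fits without 1 library, 10 lost it (adjusted p up to 0.102), all but those without Tu_Ma.Hi I or Tu_Ma.Hi V.

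Of 12 tested genes of arginine handling 1 was called higher, beside 1.13% of all genes, and none lower. It was Ass1, argininosuccinate synthase, which rebuilds arginine from citrulline. Ass1 was at 3.26, 3.66 and 3.65 log2 RPKM in LP_Ma.Hi, -0.13, 2.59 and 1.41 in LP_Ma.Lo, 4.22, 5.05 and 4.44 in Tu_Ma.Hi, and 5.44, 5.79 and 5.84 in Tu_Ma.Lo. The libraries of the subsets did not overlap in either tissue, MHCIIlow being below in LP and above in tumours, but only the difference in LP was called (adjusted p = 0.00231, against 0.261 in tumours). The tumour effect was 4.40 in MHCIIlow (adjusted p = 3.69e-07) and 1.05 in MHCIIhi cells (adjusted p = 0.0958), and the interaction 3.36 ± 0.60 (10.2-fold, adjusted p = 0.00884), or 2.65 (adjusted p = 0.00337) without LP_Ma.Lo II. Of its possible reads 38.4% match a pseudogene. Arg1, the arginase that consumes arginine, was higher in MHCIIlow cells of both tissues, by 2.22 in LP (adjusted p = 0.0209) and 3.10 in tumours (adjusted p = 0.0102). Its interaction was 0.88 ± 0.81 (adjusted p = 0.776) and turned to -0.11 without LP_Ma.Lo II, in which Arg1 was at 5.42 against 8.02 and 8.78 in the others. Arg2 had an interaction of 1.19 ± 0.59 (adjusted p = 0.425), and Nos2, inducible nitric oxide synthase, one of 4.36 ± 1.23 (adjusted p = 0.0872) with as few as 4 reads in a library.

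Acot7, Tes and Acod1 were diverging genes too, and Slc7a11 a converging one. Acot7, an acyl-CoA thioesterase, was at 3.99, 4.23 and 4.08 log2 RPKM in LP_Ma.Hi and 3.05, 3.33 and 3.17 in LP_Ma.Lo, while in tumours it was at 2.49, 3.33 and 2.34 in MHCIIhi and 3.93, 4.57 and 4.17 in MHCIIlow cells. Its interaction was 2.42 ± 0.35 (5.35-fold, adjusted p = 0.00148). Tes, or testin, a focal adhesion protein, was alike in LP (4.79 ± 0.17 and 4.54 ± 0.21) and differed in tumours (3.69 ± 0.25 and 4.95 ± 0.18 in MHCIIhi and MHCIIlow cells). Its interaction was 1.51 ± 0.22 (adjusted p = 0.00141), and both Acot7 and Tes passed in all 27 alternatives. Acod1, which makes itaconate, fell by 0.74 log2 units in MHCIIhi (adjusted p = 0.0251) and rose by 0.77 in MHCIIlow cells (adjusted p = 0.0163), an interaction of 1.51 ± 0.32 (adjusted p = 0.02). It was not called without LP_Ma.Hi IV (0.0634), Tu_Ma.Hi VII (0.0581) or Tu_Ma.Lo V (0.0623). Slc7a11, the cystine importer, had an interaction of 1.55 ± 0.37 (adjusted p = 0.0408) that passed in 17 of 27 alternatives and in 4 of the 12 without 1 library, those without LP_Ma.Lo III, LP_Ma.Lo IV, Tu_Ma.Hi V or Tu_Ma.Lo VII.

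Among 28 tested genes of the interleukin-1, TNF and NF-kappaB response, Il1r2, Acod1 and Il1b were called higher and none lower, beside 1.13% and 0.326% of all genes, and the median was -0.17 with 12 positive. The count of 3 was 1 without LP_Ma.Hi IV, Tu_Ma.Hi VII or Tu_Ma.Lo V and with only the 12 macrophage libraries, 5 in the replicate block fit, and 5 with 2 called lower under arrayWeights. Il1b encodes interleukin-1 beta. It was at 9.97, 10.03 and 10.27 log2 RPKM in LP_Ma.Hi, 7.63, 8.30 and 8.27 in LP_Ma.Lo, 11.06, 10.65 and 10.13 in Tu_Ma.Hi and 10.65, 10.26 and 9.88 in Tu_Ma.Lo, where the subsets overlapped. The interaction was 1.67 ± 0.40 (adjusted p = 0.0428), and it passed without LP_Ma.Lo III, Tu_Ma.Hi I or Tu_Ma.Lo VII but in none of the other 9 fits that left out 1 library (adjusted p up to 0.108). Inhba, which encodes the activin A subunit, fell in MHCIIhi (-2.14, adjusted p = 0.011) and rose in MHCIIlow cells (1.82, adjusted p = 0.0249), an interaction of 3.96 ± 0.81 (adjusted p = 0.0167). The call was lost without LP_Ma.Hi IV (0.0511), Tu_Ma.Hi VII (0.0551) or Tu_Ma.Lo V (0.0557), and the interaction was 2.98 without LP_Ma.Lo II.

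Of 17 tested matrix proteases and inhibitors, 4 were called higher (Mmp12, Mmp13, Mmp14 and Adam8) and none lower, beside 1.13% and 0.326% of all genes. In this list 12 interactions were positive (median 0.76). Mmp12, macrophage elastase, was at 5.60, 5.69 and 5.53 log2 RPKM in LP_Ma.Hi, 1.21, 4.28 and 4.15 in LP_Ma.Lo, 6.69, 7.78 and 6.74 in Tu_Ma.Hi, and 8.21, 8.77 and 8.44 in Tu_Ma.Lo. The tumour effect was 5.26 in MHCIIlow (adjusted p = 6.98e-07) and 1.46 in MHCIIhi cells (adjusted p = 0.0648), and the interaction 3.80 ± 0.77 (adjusted p = 0.0153), or 2.80 without LP_Ma.Lo II and 0.0501 in adjusted p without Tu_Ma.Lo V. Adam8, a membrane protease of myeloid cells, fell in MHCIIhi cells (-1.66, adjusted p = 5.48e-05), had a tumour effect of 0.47 in MHCIIlow cells (adjusted p = 0.181) and an interaction of 2.13 ± 0.34 (adjusted p = 0.00355). Mmp13, collagenase 3, was at 8.49 ± 0.02 in LP_Ma.Hi, 6.19 ± 0.53 in LP_Ma.Lo, 8.49 ± 0.17 in Tu_Ma.Hi and 8.36 ± 0.35 in Tu_Ma.Lo, an interaction of 2.17 ± 0.47 (adjusted p = 0.0246). Mmp14, its membrane-bound activator, had 2.20 ± 0.54 (adjusted p = 0.0453). In the replicate block fit Mmp13 and Mmp14 were not called (0.111 and 0.11). Mmp13 was called in 4 of the 12 fits without 1 library, those without LP_Ma.Lo III, LP_Ma.Lo IV, Tu_Ma.Hi V or Tu_Ma.Lo VII, and Mmp14 in 2, those without LP_Ma.Lo III or Tu_Ma.Hi V. The count of 4 was 1 without Tu_Ma.Lo V and 2 without LP_Ma.Hi III, IV or V, LP_Ma.Lo II, Tu_Ma.Hi I or VII, or Tu_Ma.Lo I. Mmp9 (1.23 ± 0.74, adjusted p = 0.552) and Mmp2 (2.13 ± 0.69, adjusted p = 0.146), which the study names, were called up by the tumour in both subsets, and their interactions did not pass.

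The windows before Mmp13 and Itgax are shown because they hold TGANTCA, the site of AP-1 factors, where N is any base. The motif is its own reverse complement, so both strands are covered. Of the 5 genes Adam8, Mmp12, Mmp13, Mmp14 and Itgax, 3 have it in at least 1 window, against 6.21% of the 9067 tested genes and 6.75% of all windows. It begins 35 bases before the start of Mmp13 and 56 before that of Itgax, and in Mmp12 it is in 1 of 2 windows. Of the called matrix proteases, Mmp12 and Mmp13 have it, and Mmp14 and Adam8 do not. These 5 genes were chosen after their values were seen. Itgax is not a matrix protease and comes from other lists, so that the share in this set is not a test of the motif.
Mmp13 (chr9:7272264-7272513, plus strand): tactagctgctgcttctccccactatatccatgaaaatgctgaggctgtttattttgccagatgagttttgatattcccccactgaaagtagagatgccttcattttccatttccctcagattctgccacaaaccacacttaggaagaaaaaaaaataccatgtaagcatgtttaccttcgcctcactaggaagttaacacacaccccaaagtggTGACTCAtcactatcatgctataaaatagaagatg
Itgax (chr7:128129300-128129549, plus strand): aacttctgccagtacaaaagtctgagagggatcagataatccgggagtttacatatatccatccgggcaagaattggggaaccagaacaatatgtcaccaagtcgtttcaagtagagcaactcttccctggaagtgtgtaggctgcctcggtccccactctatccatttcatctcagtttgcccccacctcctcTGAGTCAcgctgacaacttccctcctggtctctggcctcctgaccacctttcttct

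C3, the central component of complement, was at 3.10, 5.14 and 4.10 log2 RPKM in LP_Ma.Lo and between 5.17 and 6.08 in the 9 other libraries, an interaction of 2.10 ± 0.44 (adjusted p = 0.0199, and 0.0528 without LP_Ma.Hi IV and 0.0509 without Tu_Ma.Hi VII). Runx3, a transcription factor of maturing gut macrophages, was lower in LP_Ma.Lo (3.99 ± 0.28) than in the other groups (5.26 ± 0.12, 5.07 ± 0.22 and 5.00 ± 0.27), an interaction of 1.20 ± 0.29 (adjusted p = 0.0445) that was not called in the replicate block fit (0.156) and in 9 of the 12 fits without 1 library, all but those without LP_Ma.Lo III, LP_Ma.Lo IV or Tu_Ma.Hi I.

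Jmjd1c, Tns1, Runx1 and Lyl1 were among the genes with a lower interaction. Jmjd1c, of the JmjC histone demethylase family, was at 3.99, 3.88 and 3.78 log2 RPKM in LP_Ma.Hi, 4.19, 4.26 and 4.31 in LP_Ma.Lo, 3.85, 3.75 and 3.77 in Tu_Ma.Hi, and 3.21, 2.94 and 2.98 in Tu_Ma.Lo. The tumour effect was called in MHCIIlow cells (-1.21, adjusted p = 4.29e-07) and was -0.09 in MHCIIhi cells (adjusted p = 0.665), and the interaction was -1.12 ± 0.17 (adjusted p = 0.00204). Tns1, or tensin, which ties integrins to actin, was at 2.15, 2.21 and 1.98 in LP_Ma.Hi, 4.47, 3.50 and 3.43 in LP_Ma.Lo, 2.27, 2.44 and 2.12 in Tu_Ma.Hi, and 1.66, 1.29 and 0.88 in Tu_Ma.Lo, with an interaction of -2.69 ± 0.49 (adjusted p = 0.00936). Jmjd1c and Tns1 passed in all 27 alternatives. Fibroblasts also express Tns1, and the fibroblast and endothelial markers named above were highest in LP_Ma.Lo. Their part in this interaction was not tested.

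Runx1, a transcription factor of blood cell development, was at 3.30 ± 0.07 and 3.32 ± 0.03 log2 RPKM in LP and tumour MHCIIhi cells and fell from 3.82 ± 0.18 to 2.61 ± 0.26 in MHCIIlow cells (adjusted p = 1.73e-05), an interaction of -1.23 ± 0.23 (adjusted p = 0.0113, and 0.0577 in the replicate block fit). Lyl1, a basic helix-loop-helix factor, rose in MHCIIhi cells (1.60, adjusted p = 0.00174), with an interaction of -2.27 ± 0.47 (adjusted p = 0.0184) that was not called in the replicate block fit (0.0825) or without Tu_Ma.Hi VII (0.0584) or Tu_Ma.Lo V (0.0586). The interaction of Nhlrc3 was -0.95 ± 0.20 (adjusted p = 0.0184, lost without LP_Ma.Hi III at 0.0581 and Tu_Ma.Hi VII at 0.0551). That of Atp6v0a1, a subunit of the proton pump of lysosomes, was -1.25 ± 0.26 (adjusted p = 0.02). Atp6v0a1 was raised only in MHCIIhi cells (1.18, adjusted p = 0.000123), which brought them from 2.93 ± 0.10 to 4.11 ± 0.26, level with tumour MHCIIlow cells at 3.99 ± 0.26. It was not called in the replicate block fit (0.0546) or without LP_Ma.Hi III or IV, LP_Ma.Lo II or Tu_Ma.Hi VII (0.0505 to 0.057). Mat2a, which makes S-adenosylmethionine, fell in both subsets and further in MHCIIlow cells (-1.92 against -0.70), an interaction of -1.22 ± 0.27 (adjusted p = 0.0288, and 0.0565 in the replicate block fit). Mat2a and Rapgef6, an exchange factor for Rap GTPases (-1.97 ± 0.45, adjusted p = 0.0305), each lost their call without any of LP_Ma.Hi III, IV and V, Tu_Ma.Hi I and VII and Tu_Ma.Lo V, and Rapgef6 also without Tu_Ma.Lo I (adjusted p up to 0.0797 and 0.0861). LP_Ma.Lo II was the highest of all macrophage libraries in both, at 8.36 and 4.60.

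**Figure D4:**
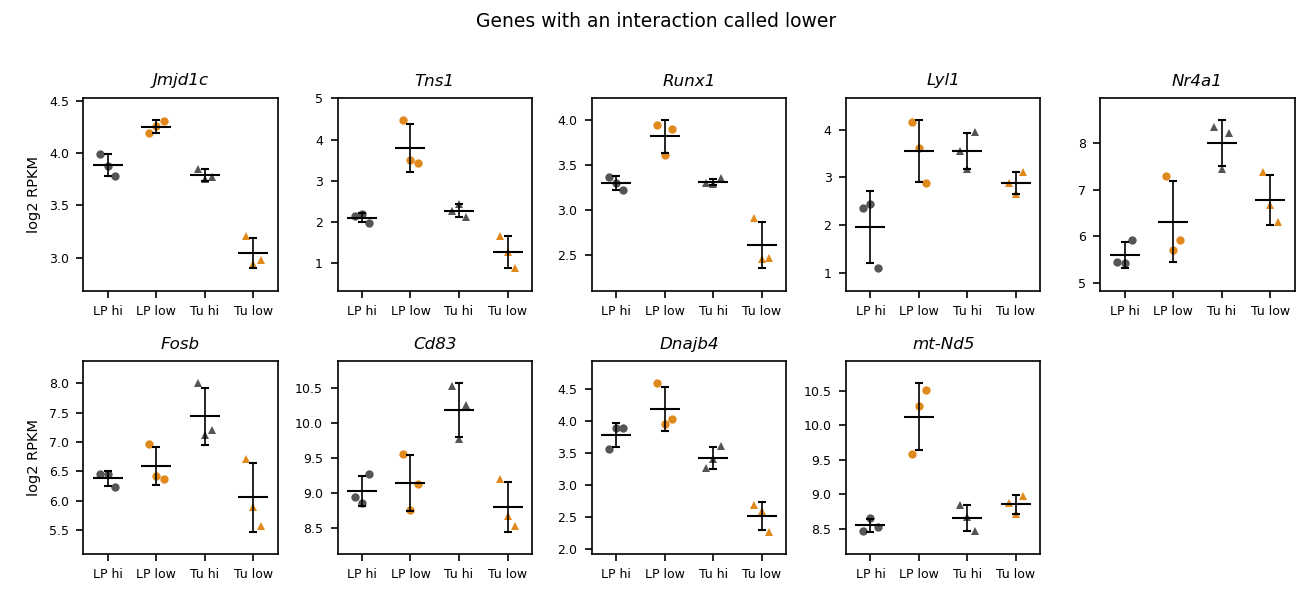
Log2 RPKM of 9 genes with a lower interaction in the 12 libraries, as circles for LP and triangles for tumours, in grey for MHCIIhi and orange for MHCIIlow, with the mean ± SD of 3 libraries in black. The tumour MHCIIlow libraries lie below all others for Jmjd1c, Tns1, Runx1 and Dnajb4 and are lowest by mean for Fosb and Cd83, while for mt-Nd5 the LP MHCIIlow libraries stand above the rest.

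Stimulus-response genes leaned in the lower direction. Of 23 tested immediate-early and heat shock genes, 2 were called lower (Fosb and Nr4a1) and none higher, beside 0.326% and 1.13% of all genes, and 19 of the 23 interactions were negative (median -0.58). Fosb, a subunit of AP-1, was at 6.46, 6.46 and 6.24 log2 RPKM in LP_Ma.Hi, 6.96, 6.43 and 6.38 in LP_Ma.Lo, 8.00, 7.12 and 7.21 in Tu_Ma.Hi, and 6.71, 5.90 and 5.57 in Tu_Ma.Lo. The subsets overlapped in LP and parted in tumours, and the tumour effect was called in MHCIIhi cells (1.06, adjusted p = 0.00518). The interaction was -1.59 ± 0.36 (adjusted p = 0.0302). Nr4a1, the nuclear receptor Nur77, was at 5.44, 5.41 and 5.92 in LP_Ma.Hi, 7.30, 5.70 and 5.91 in LP_Ma.Lo, 8.34, 7.44 and 8.22 in Tu_Ma.Hi and 7.37, 6.66 and 6.31 in Tu_Ma.Lo, an interaction of -1.93 ± 0.48 (adjusted p = 0.0457, and 0.11 in the replicate block fit). Dnajb4, a heat shock co-chaperone outside the list, had -1.32 ± 0.28 (adjusted p = 0.02, and 0.0945 in the replicate block fit, 0.0626 without LP_Ma.Hi III and 0.0601 without Tu_Ma.Hi VII). Hspa1a (-2.95 ± 0.76, adjusted p = 0.055) and Atf3 (-1.31 ± 0.35, adjusted p = 0.0615) did not pass. Hspa1a was at 9.61 in LP_Ma.Lo II against 6.33 and 6.86 in the other libraries of that group, and 66.1% of its possible reads match its twin copy or other genes.

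Cd83 and Nfkbid, named after their values were seen, were also called lower. Cd83, a surface protein of activated antigen-presenting cells, was at 8.95, 8.86 and 9.27 log2 RPKM in LP_Ma.Hi, 9.56, 8.76 and 9.13 in LP_Ma.Lo, 10.53, 9.77 and 10.26 in Tu_Ma.Hi, and 9.20, 8.67 and 8.53 in Tu_Ma.Lo. The tumour MHCIIhi libraries were above all others, and the interaction was -1.51 ± 0.35 (adjusted p = 0.039). Nfkbid, a nuclear inhibitor of NF-kappaB, had -1.29 ± 0.31 (adjusted p = 0.0453, and 0.129 in the replicate block fit). These calls near the threshold depended on single libraries. Of the 12 fits without 1 library, Fosb was called in 5 (without LP_Ma.Lo III or IV, Tu_Ma.Hi V or VII, or Tu_Ma.Lo I), Nr4a1 in 4 (the same but Tu_Ma.Hi VII), Cd83 in 3 (LP_Ma.Lo III, Tu_Ma.Hi V, Tu_Ma.Lo I) and Nfkbid in 3 (LP_Ma.Lo IV, Tu_Ma.Hi V, Tu_Ma.Lo I). Their adjusted p reached 0.0868, 0.124, 0.1 and 0.133 in the others. The count of 2 in the list was 0 without LP_Ma.Hi III, IV or V, Tu_Ma.Hi I, or Tu_Ma.Lo V or VII. LP and tumour tissue had been digested for different times, which both subsets of a tissue shared, and its part in these genes was not tested.

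Genes of the mitochondrial genome were looked at after their values were seen. Of 12 tested mitochondrially encoded protein genes, 11 interactions were negative and 2 were called lower, beside 0.326% of all genes (median -1.16). The count of 2 was 0 with only the 12 macrophage libraries, 7 in the replicate block fit and 5 without LP_Ma.Lo II. It was 1 without any of LP_Ma.Hi III, IV or V, LP_Ma.Lo III or IV, Tu_Ma.Hi I, or Tu_Ma.Lo I or V. mt-Nd5, a subunit of respiratory complex I, was at 8.47, 8.65 and 8.53 log2 RPKM in LP_Ma.Hi, 9.58, 10.27 and 10.51 in LP_Ma.Lo, 8.84, 8.67 and 8.47 in Tu_Ma.Hi and 8.88, 8.71 and 8.97 in Tu_Ma.Lo. The 3 LP MHCIIlow libraries stood above all others, and the interaction was -1.38 ± 0.27 (adjusted p = 0.0122). mt-Nd4, from the same complex, had -1.20 ± 0.28 (adjusted p = 0.0378, and 0.111 after quantile normalization), with 62.2% of its possible reads matching another annotated gene. It was called in 4 of the 12 fits without 1 library, those without LP_Ma.Lo II, Tu_Ma.Hi V, Tu_Ma.Hi VII or Tu_Ma.Lo VII. The share of mitochondrial reads is also a common measure of cell stress in a library, and it was highest in LP_Ma.Lo, as given above. Its part in the other interactions was not tested.

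The gates used MHCII protein, so that a subset difference in these genes was set by the sort. All 13 tested genes of MHC class II presentation had positive interactions (median 1.88) and limma called none, with 8 at an unadjusted p under 0.05. H2-Ab1 was at 13.11, 13.24 and 13.36 log2 RPKM in LP_Ma.Hi, 6.67, 9.48 and 8.68 in LP_Ma.Lo, 13.22, 12.58 and 11.95 in Tu_Ma.Hi, and 11.05, 10.46 and 8.49 in Tu_Ma.Lo. The MHCIIlow libraries spread over several log2 units in both tissues, and the interaction was 2.37 ± 0.85 (adjusted p = 0.2). H2-Aa had 2.01 ± 0.86 (adjusted p = 0.306), H2-DMb1 1.83 ± 0.49 (adjusted p = 0.0681, and 0.0488 in the replicate block fit) and H2-Oa 5.42 ± 1.40 (adjusted p = 0.0581), with no reads of H2-Oa in 1 library of LP_Ma.Lo. The median subset difference of the list was -3.94 in LP and -1.77 in tumours. Up to 5 of the 13 were called under the other settings tried, 5 of them with voom on recovered reads. Ccr2, the receptor that brings monocytes into tissue, had 1.63 ± 0.51 (adjusted p = 0.129).

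Scavenger and tissue-residence genes leaned the other way without passing. Of 22 tested, 20 had negative interactions (median -1.37). Limma on all 24 libraries called none, with 3 at an unadjusted p under 0.05, and on the 12 macrophage libraries it called 3 lower. Voom on recovered reads called 3 lower with the deposited scaling, 5 with summed reads and 4 on the 12 macrophage libraries. The median subset difference was 2.05 in LP and 0.43 in tumours. Lyve1, the hyaluronan receptor of perivascular macrophages, was at 8.22, 4.91 and 5.57 log2 RPKM in LP_Ma.Lo and between 1.06 and 2.22 in LP_Ma.Hi, and no tumour macrophage library exceeded -3.47. Its interaction was -3.74 ± 1.75 (adjusted p = 0.375), and both tumour groups held libraries with 0 reads, so that its size depends on the value given to 0 reads. Stab1 (-1.31 ± 0.36, adjusted p = 0.0771) and Gas6, a bridge between dying cells and phagocytes (-2.65 ± 0.93, adjusted p = 0.189), did not pass either. With log2(RPKM + 1), 9 of the 22 were called lower and 1 higher.

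Of 24 tested S phase and 26 tested G2/M genes limma called none in the interaction, with 3 and 2 at an unadjusted p under 0.05, and the medians were 0.43 and -0.30. E2f2 had an interaction of 2.30 ± 0.67 (adjusted p = 0.105), Cdk1 1.61 ± 1.81 (adjusted p = 0.849), Ccnb2 -0.55 ± 0.89 (adjusted p = 0.92) and Ccna2 -0.29 ± 1.51 (adjusted p = 0.996). The standard errors of the last 3 span changes of several fold in either direction, so that a difference of that size was not detectable in these genes. Limma also called none among 32 interferon-stimulated genes (median 0.28, 2 at an unadjusted p under 0.05), 19 chemokines (-0.31, 4), 24 genes of cholesterol and fatty acid synthesis (-0.45, 3) and 16 angiogenic and growth factors (0.07, 2). With voom on recovered reads the calls in these 6 lists were 0 for both cell cycle lists and the interferon-stimulated genes, 4 for chemokines, 1 for cholesterol and fatty acid synthesis and 2 for the growth factors. In the Trem2, colonic maturation and stress lists all calls were higher, beside 1.13% of all genes called higher and 0.326% called lower. Itgax belongs to both the Trem2 and the maturation list, so that these counts are not separate. The 21 Trem2 lipid-associated genes had 1 call, Itgax (median 0.49). The 20 colonic maturation genes had 2, Itgax and Runx3 (median -0.03), and the 20 unfolded protein and Atf4 stress genes 2, Slc7a11 and Ddit4 (median 0.42). The last count was 0 without any of LP_Ma.Hi III, IV or V, LP_Ma.Lo II, Tu_Ma.Hi VII, or Tu_Ma.Lo I or V.

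**Figure D5:**
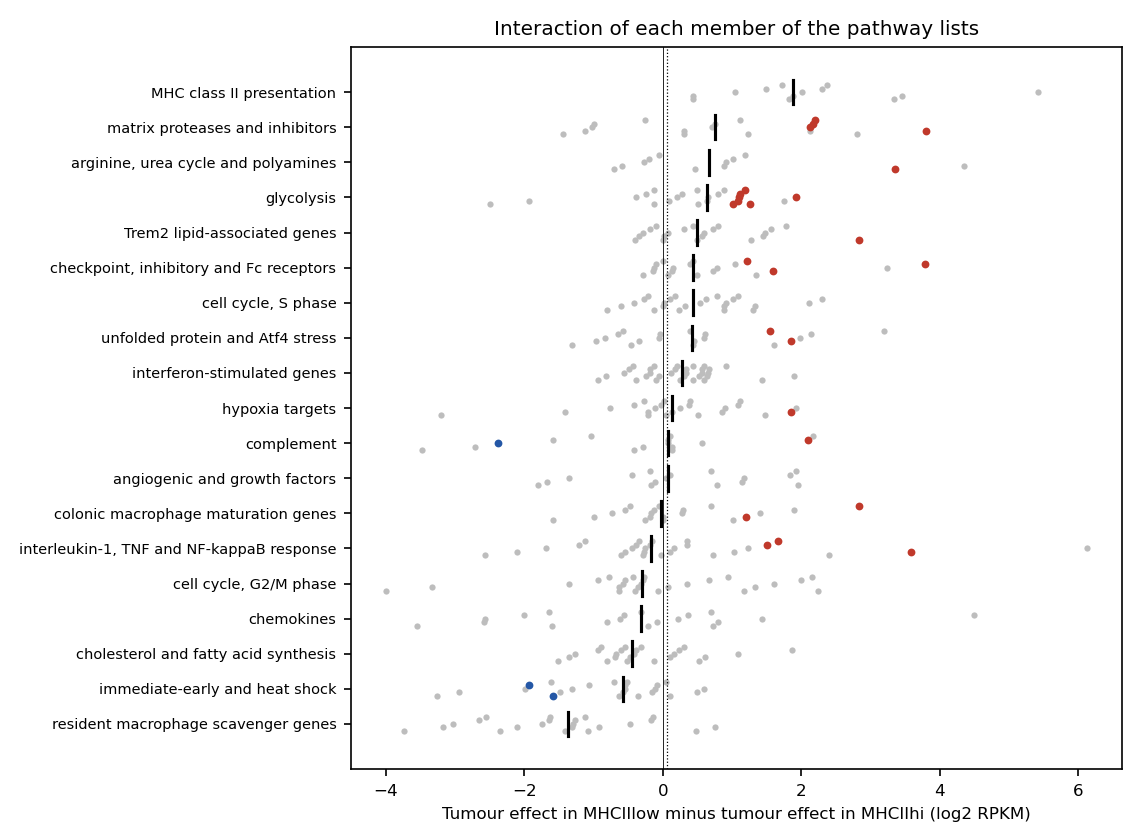
Interaction (x axis, log2 RPKM) of each tested member of the 19 pathway lists, with red for genes called higher, blue for called lower and grey for not called. Black bars are list medians and the dotted line is the median of all genes, 0.06. MHC class II genes have the highest median (1.88) and scavenger genes the lowest (-1.37), neither with a called member, while glycolysis has the most called genes (7).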

How the data were processed

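The table deposited by the authors holds log2 RPKM values for 17301 genes in 24 libraries. Per the labels and the study's methods, RNA of sorted cells was amplified by SMARTSeq v2 without strand information and sequenced as read pairs, and the authors aligned reads with STAR 2.3 to GRCm38, counted them with featureCounts 1.5 on GENCODE genes, left out genes with few reads and scaled the rest with edgeR. Whole reads were recovered for 100% of values (prior of 0.25 reads, tolerance 0.02) and served only for voom alternatives and read counts. The 12 macrophage libraries held 12.8 to 41.7 M reads.

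Genes with a mean of at least 1 RPKM in a group were fitted with limma 3.58.1 (R 4.3.3) on the log2 values, with 8 group means over 24 libraries and a trended prior variance, and p-values were adjusted by Benjamini-Hochberg over all 12878 genes with a threshold of 0.05. Other scalings, filters, weights, blocks and fits without 1 library were tried. Each library is a pool of animals, so that p-values measure the spread between pools. The labels give both subsets the same donor numbers in tumours (I, V and VII), but in LP only III and IV are shared. The replicate block uses these numbers. That a shared number means 1 sort of 1 pool is not given in the sources used here. The correlation of paired deviations from the group means was 0.0271 and -0.0661 in LP donors III and IV and 0.255, -0.00654 and 0.101 in tumour donors I, V and VII. LP_Ma.Lo II has no partner and adds nothing to the fixed replicate block fit. LP_Ma.Hi V has no MHCIIlow partner and shares its number only with the monocyte and neutrophil libraries of LP donor V.

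Named genes reached 10 RPKM in a macrophage group and were the 12 with the smallest p in each direction, up to 4 per pathway list, up to 3 called genes with the largest interaction per pattern, and genes the study names. A pair of genes picked by this rule is not reported here. Those named after their values were seen are marked. Members and lists were chosen with earlier results of these data known. Scripts were tested on simulated data. Shared reads were counted as 51-base words of a gene's exons that occur in another GENCODE gene.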

Additional observations from a re-analysis of the deposited data

Results flagged for a closer look

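The interaction is itself a test of whether the tumour effect differed between the subsets, and it passed the threshold (limma, adjusted p under 0.05) in 50 of the genes named in the report, 35 with a larger or less negative tumour effect in MHCIIlow cells and 15 with a smaller one. On the log2 RPKM scale, the highest interactions were those of Dcstamp (4.84), Inhba (3.96), Itgb7 (3.91), Mmp12 (3.80), Pdcd1lg2 (3.79), Il1r2 (3.59), Ass1 (3.36) and Gpr171 (3.29). Lower down came Itgax (2.84), Il7r (2.78), Chst11 (2.62), Acot7 (2.42), Mmp14 (2.20), Mmp13 (2.17), Adam8 (2.13), C3 (2.10) and Plbd1 (2.10). The next were Emb (1.94), Slc16a3 (1.92), Cyp4f18 (1.87), Ddit4 (1.86), Lmnb1 (1.77), Il1b (1.67), Pilra (1.60), Slc7a11 (1.55), Acod1 (1.51) and Tes (1.51). The smallest positive values were those of Pfkp (1.26), Havcr2 (1.22), Runx3 (1.20), Aldoa (1.19), Pgk1 (1.11), Pkm (1.10), Pgam1 (1.08) and Eno1 (1.02). Among genes with a negative interaction the values were, from the lowest upwards, Tns1 (-2.69), Lyl1 (-2.27), Rapgef6 (-1.97), Nr4a1 (-1.93), Fosb (-1.59), Cd83 (-1.51), mt-Nd5 (-1.38), Dnajb4 (-1.32), Nfkbid (-1.29), Atp6v0a1 (-1.25), Runx1 (-1.23), Mat2a (-1.22), mt-Nd4 (-1.20), Jmjd1c (-1.12) and Nhlrc3 (-0.95).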

How the results depend on the processing

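The number of genes with a higher interaction was 146 and moved beyond 1.5 times this with log2(RPKM + 1) to 257, with arrayWeights to 292, with voom on recovered reads to 330 (deposited scaling) and 269 (summed reads), with only the 12 macrophage libraries to 52 and at an adjusted p under 0.1 to 239. The number with a lower interaction was 42 and moved with log2(RPKM + 1) to 216, with log2(RPKM + 0.1) to 80, with quantile normalization to 131, with arrayWeights to 141, with voom to 209 (deposited scaling), 292 (summed reads) and 65 (12 macrophage libraries, an alternative chosen after seeing the data), and at an adjusted p under 0.1 to 95. Leaving out 1 library in turn gave 63 to 233 higher and 15 to 78 lower. With the fixed replicate block there were 154 higher and 37 lower, of which 125 were among the 188, and the named calls that it ended or added are given beside their genes. The direction of 2 named genes that did not pass reversed. Arg1 was -0.26 with the fixed replicate block and -0.11 without LP_Ma.Lo II. Ccna2 was 0.52 with log2(RPKM + 1), 0.15 with log2(RPKM + 0.1), 0.65 with the fixed replicate block, 0.88 without LP_Ma.Hi V, 0.06 without Tu_Ma.Hi VII and 0.17 without Tu_Ma.Lo I. Over the fits without 1 library Arg1 ranged from -0.11 to 1.57 and Ccna2 from -0.94 to 0.88. The cause was not tested. With 3 libraries a group, many calls near the threshold changed with single libraries, and genes with few reads, such as Ccna2 with as few as 5, were not resolved.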
